A study of Ericerus pela with 8 samples.

Results

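Phototransduction transcripts were followed through the development of males and females of the Chinese white wax scale, Ericerus pela. They are represented by 6 of the 147509 unigenes, the assembled transcript fragments to which reads were assigned. The 6 were taken by identifier and the protein they matched best: a long-wavelength opsin, an Arr2-like arrestin, a pair of arrestin-like fragments, a rhodopsin-specific isomerase and NINAC. The groups were male first-instar larvae, male second-instar larvae and male adults, and female first-instar larvae, female second-instar larvae and female adults of early, middle and later stage, called late here. Each group was 1 RNA-seq library made from washed, homogenised insects, which gave 3 male and 5 female libraries. No treatment, mutation or selected tissue is named in the labels. Neither the number of insects per library nor whether the sexes were collected together is given, so sex and collection cannot be told apart.

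In insect photoreceptors an opsin protein bound to a retinal chromophore absorbs light and activates a Gq-type G protein. The G protein switches on a phospholipase C, and TRP and TRPL cation channels open. Visual arrestins bind the light-activated rhodopsin and end its signal. In Drosophila, a membrane-bound isomerase (NinaA) is needed for the newly made rhodopsin to leave the endoplasmic reticulum, and NINAC is a class III myosin with a kinase domain, held in the rhabdomere, the light-sensing microvilli. The adult male of this scale insect is winged, whereas the adult female is wingless and settled on the plant.

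Libraries held 1461 to 2303 uniquely assigned reads in units of 1000 reads, the largest 1.58 times the smallest. Levels are CPM, counts scaled to the library total, unless said otherwise. A count of 0 allows up to 3 reads, which stood for 1.30 to 2.05 CPM. With 1 library per group, a difference between libraries could not be set against replicates and carries no p-value. Intervals given with ratios are exact 95% intervals that cover counting error only. A ratio given as at least sets 3 reads in place of 0 and is not a limit of such an interval.

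All 6 unigenes had their highest level in the male adult library. Together they had 73, 31 and 1661 reads in male first-instar, second-instar and adult libraries, against 53, 58, 49, 37 and 17 reads in the female first-instar, second-instar, early, middle and late adult libraries. In each member's order of levels, the male adult was apart from the next library beyond counting error, and no other neighbours were. The male adult library held 85.0% of their CPM summed over the 8 libraries. Their summed level was 902 CPM in male adults (859 to 947), against 24.7, 25.3 and 9.12 CPM in early, middle and late adult females. That was 36.6-fold (27.5 to 49.7), 35.6-fold (25.7 to 50.8) and 99.0-fold (61.6 to 170) higher in the male. In whole insects, more cells of a type and more RNA per cell cannot be told apart.

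A unigene was counted as different in adults when the male level was at least 4-fold away from each of the 3 female adult levels, with 1 CPM added and at least 20 reads in either library. By this rule 6 of 6 members were higher in the male and 0 were lower. No member had 20 reads in a female adult library. All 6 thus met the minimum of reads through the male library alone, and a lower call of a member was not possible. Of all 26437 unigenes with enough reads, 9.34% were higher and 7.8% were lower. The median log2 ratio of all unigenes was -0.52, -0.37 and -0.62 against early, middle and late females. Without the added 1 CPM, scaling by TMM raised every log2 ratio against these females by 0.36, 0.37 and 0.19. With it added, the same 6 members passed the rule under TMM scaling.

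**Figure D1:**
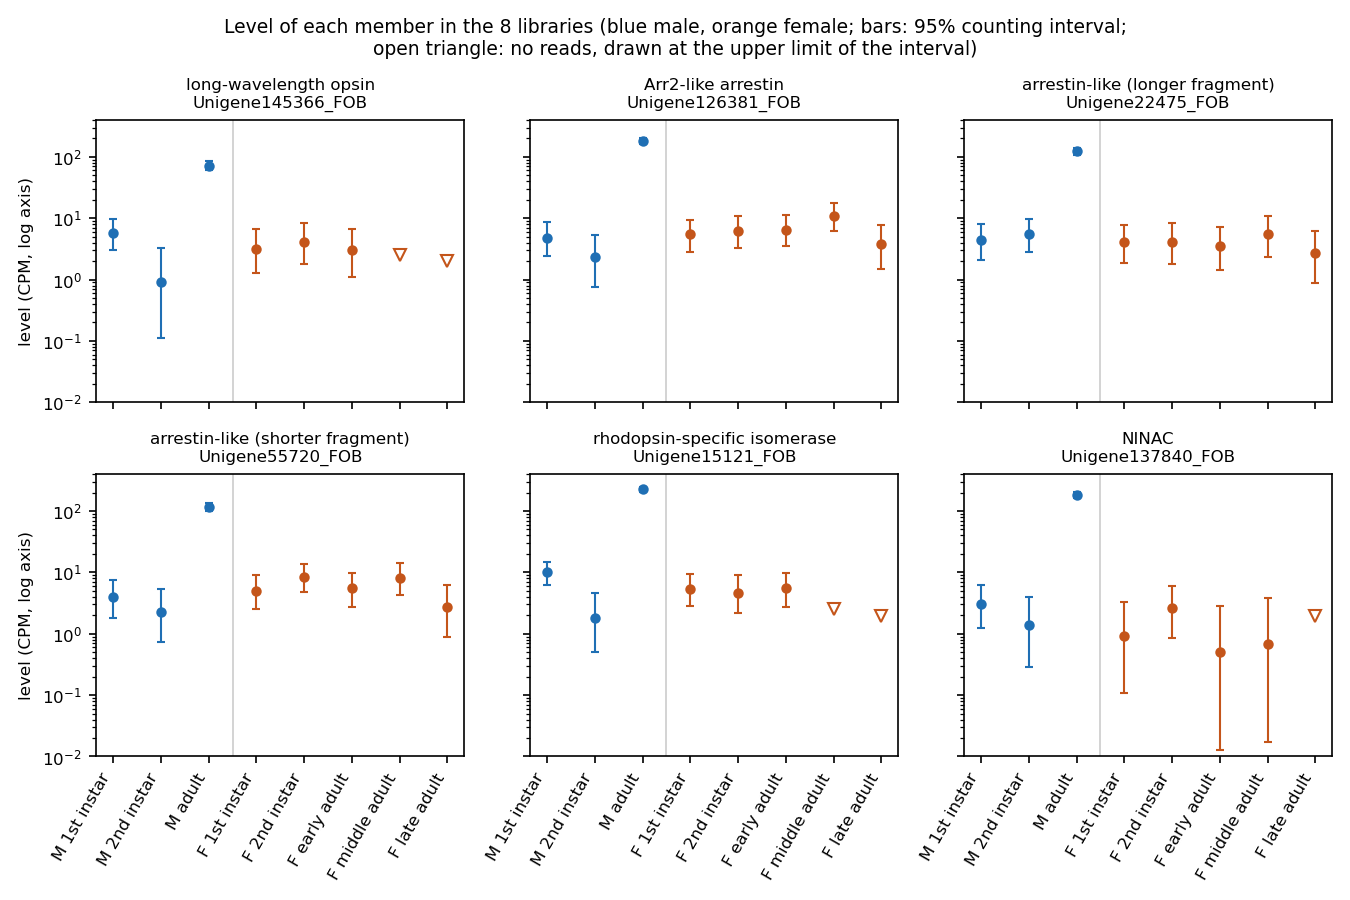
Level of each of the 6 unigenes in the 8 libraries in CPM on a log axis, male libraries (blue) left of female libraries (orange). Bars are 95% counting intervals and open triangles mark libraries with no reads. Each panel has 1 high point, the male adult, from 72.2 CPM for the opsin to 228 CPM for the isomerase.

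The opsin, the light receptor itself, was matched best to a protein of the aphid Pemphigus populi (Unigene145366_FOB, 483 bases). It had 13, 2 and 133 reads in male first-instar, second-instar and adult libraries, against 7, 8 and 6 reads in female first-instar, second-instar and early adult libraries and 0 in both later female libraries. Next in its order of levels came the male first instar, 12.8-fold below the male adult (7.23 to 24.7). Its level was 72.2 CPM in male adults (60.5 to 85.6), against 3.02 CPM in early adult females, 23.9-fold higher (10.7 to 66.4). Against middle and late females, with no reads, it was at least 35.2-fold and at least 44.9-fold higher. Reads covered 98.14% of its length in the male adult library, against 31.88% in the early female library.

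The isomerase was matched best to the rhodopsin-specific isozyme of the ant Harpegnathos saltator (Unigene15121_FOB, 921 bases). Its reads numbered 23, 4 and 419 in male first-instar, second-instar and adult libraries, against 12, 9, 11, 0 and 0 in the female libraries from the first instar to the late adult. Like the opsin, it was read in early adult females and not in the later ones. Its 228 CPM in male adults was 41.1-fold the 5.54 CPM of early females (22.7 to 83.0), at least 111-fold the level of middle females and at least 141-fold that of late females.

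NINAC was matched best to a honey bee protein and carries the deposited annotation of the rhabdomere (Unigene137840_FOB, 391 bases). It had 7, 3 and 336 reads in male first-instar, second-instar and adult libraries, against 2, 5, 1, 1 and 0 reads in the female series. It was the member most concentrated in the male adult, which held 95.2% of its summed CPM, against 76.5% to 89.2% for the other members. The male adult ratio was 363 over early females (64.6 to 14366), 267 over middle females (47.5 to 10561) and at least 113 over late females. The single reads in early and middle females make these intervals wide.

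The Arr2-like arrestin, annotated with opsin binding, was matched best to a mosquito protein (Unigene126381_FOB, 313 bases). It had 11, 5 and 332 reads in male first-instar, second-instar and adult libraries, against 12, 12, 13, 16 and 7 reads in the female series. Unlike the opsin, it was read in every female adult library. It was 27.6-fold (15.9 to 52.3), 16.5-fold (9.99 to 29.1) and 48.0-fold (23.1 to 120) higher in male adults than in early, middle and late females.

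Both arrestin-like fragments had the same best match, an arrestin-like protein of the ant Camponotus floridanus, so they may be pieces of 1 transcript and are not independent. The longer (Unigene22475_FOB, 387 bases) had 10, 12 and 226 reads in the male series, against 9, 8, 7, 8 and 5 in the female series. The shorter (Unigene55720_FOB, 172 bases) had 9, 5 and 215 reads in the male series, against 11, 16, 11, 12 and 5 in the female series. Apart from the male adult, the libraries held 5 to 12 reads of the longer fragment and 5 to 16 of the shorter, with male and female larvae overlapping. The male adult was 34.8-fold, 22.4-fold and 45.8-fold above early, middle and late females for the longer fragment, and 21.1-fold, 14.2-fold and 43.6-fold above them for the shorter.

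**Figure D2:**
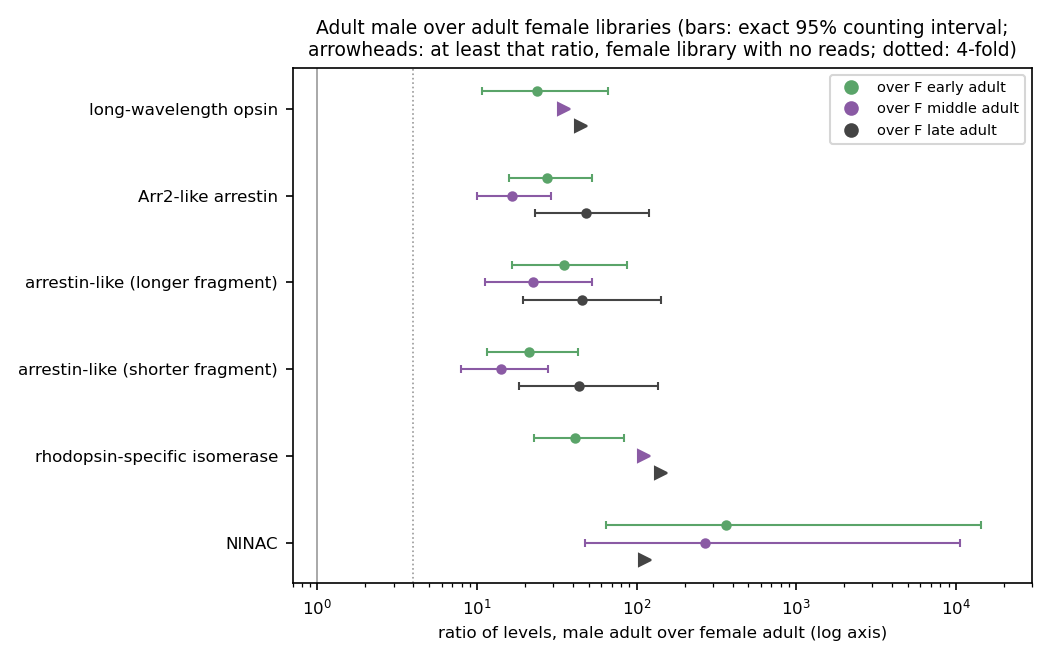
Ratio of the male adult level over each of 3 female adult levels for the 6 unigenes, on a log axis, with exact 95% counting intervals. Arrowheads give the ratio to a floor of 3 reads where the female library had no reads, and the dotted line marks 4-fold. The point estimates and bounds run from 14.2 for the shorter arrestin-like fragment over middle females to 363 for NINAC over early females.

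Between unigenes, levels can be set side by side only per length. The deposited RPKM of the male adult library was 679 and 317 for the shorter and longer arrestin-like fragments, 576 for the Arr2-like arrestin, 467 for NINAC, 247 for the isomerase and 150 for the opsin. The opsin was thus the lowest of the 6 per length in this library. By reads, the isomerase ranked 353 among all unigenes of the male adult library and the opsin ranked 2042.

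In adult females the arrestins were read at each stage, whereas the opsin and isomerase were read at the early stage alone. The sums that follow were grouped after these values were seen and are a description. The opsin, isomerase and NINAC together had 888 reads in male adults, against 18, 1 and 0 reads in early, middle and late adult females. The 3 arrestin unigenes had 773 reads in male adults, against 31, 36 and 17 in the same females. Middle over early females, the ratio was 0.0756 for the first trio (0.00181 to 0.479) and 1.58 for the arrestins (0.95 to 2.64). NINAC, with 1 read in each of these libraries, adds nothing to the lower value of the first trio. No member had 20 reads in a female library, so 0 of 6 could pass the 4-fold rule in this step, in which 7.6% of all unigenes were lower and 2.77% were higher in the middle stage.

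In larvae the members were low in both sexes. In first-instar larvae they summed to 31.7 CPM in males and 24.1 CPM in females, a ratio of 1.32 (0.911 to 1.91). In second-instar larvae they summed to 14.2 CPM in males and 30.2 CPM in females, a ratio of 0.470 (0.293 to 0.739). The interval at the first instar includes 1, and that at the second instar lies below it. Only the isomerase had 20 reads in a first-instar library and no member had them at the second instar, so 0 of 6 passed the 4-fold rule at either. Of all unigenes 0.766% were higher and 2.79% lower in first-instar males, and 2.64% were higher and 3.67% lower in second-instar males.

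Within the male larvae, 5 of 6 members had a lower value at the second instar than at the first, and none passed the 4-fold rule. The summed level was 0.448 times that of first-instar males (0.285 to 0.691). The isomerase was at 0.184 times (0.0461 to 0.537) and the opsin at 0.162 times (0.0178 to 0.717). The longer arrestin-like fragment, with 12 reads against 10, had a ratio of 1.27 (0.502 to 3.27). By that rule 3.95% of all unigenes were higher and 4.26% lower in second-instar males.

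From the second instar to the adult male, all 6 members passed the 4-fold rule, in a step in which 10.1% of all unigenes were higher and 17.4% were lower. The summed level was 63.5-fold higher in the adult (44.6 to 93.8). The ratios ran from 22.3-fold for the longer arrestin-like fragment (12.5 to 43.8) to 133-fold for NINAC (45 to 647). The female series had no such step. The summed ratio was 1.26 for second over first instar (0.850 to 1.86), 0.815 for early adults over second instar (0.546 to 1.21) and 0.360 for late over middle adults (0.190 to 0.655). The last interval lies below 1. In these steps 0 of 6 members had enough reads for the rule, while 1.16%, 1.23% and 3.89% of all unigenes were higher and 1.43%, 0.119% and 4.47% were lower.

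Over libraries, the planned test was of a sex difference common to the stages. Sex was tested with edgeR's quasi-likelihood method in all 8 libraries with stage (first instar, second instar or adult) as a covariate. Its error is the departure of the stages from a common sex difference and the spread among the adult female stages. Of 51155 unigenes tested, 0 (0%) were higher and 0 (0%) lower in males at an adjusted p of 0.05. At an unadjusted p of 0.05 there were 1538 higher and 853 lower, and DESeq2 called 43 higher and 47 lower, with 0 members among them. The 5 members tested, all but NINAC, had log2 differences from 2.40 ± 1.33 to 4.21 ± 2.02 (SE) and an adjusted p of 0.886 each.

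A second edgeR fit, added after the data were seen, gave larvae and adults a sex difference of their own, with 3 residual degrees of freedom and the single male adult library assumed to vary like the others. Its adult p-values rest on that assumption, since nothing in these data measures the spread between male adult libraries. In it 6 of 6 members were higher in adult males, with log2 differences from 4.83 ± 0.61 for the shorter arrestin-like fragment to 9.11 ± 0.82 for NINAC (SE). Adjusted p ran from 0.0105 to 0.0458 over 61335 unigenes, of which 2.61% were higher and 0.67% lower. No member was called in larvae, where the log2 differences ran from -1.12 to 0.31. The adult minus the larval difference ran from 5.20 to 8.79, with an adjusted p of 0.0862 to 0.170 for the members and 0 unigenes called, 4916 being higher and 5778 lower at an unadjusted p of 0.05. The adult calls were fragile: leaving out any 1 of the 4 larval libraries or the middle adult female left 0 members and 0 unigenes called, with all 6 members at an unadjusted p below 0.05.

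The rest of the cascade was examined in the unigenes whose matched protein names a step of it. The other unigenes matched to opsins were 8, of which 4 had enough reads in adults and all 4 were higher in the male. The long wave opsin-like unigene (Unigene128944_FOB) had 53 reads in male adults, against 4, 0 and 0 in early, middle and late females. The other 3 had 70, 73 and 53 reads in male adults, against 2, 1 and 2 reads in early females and 0 in middle and late females (Unigene13707_FOB, Unigene27246_FOB and Unigene43463_FOB). Several of these may be fragments of the same opsin. Another opsin unigene, matched to a Gq-coupled rhodopsin (Unigene146525_FOB), had 2 reads in male adults, against 9, 0 and 3 reads in females, and 18 reads in first-instar males, against 11 in first-instar females. A second with this match (Unigene42953_FOB) had 0 reads in male adults, against 1, 0 and 2 in females.

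All 7 other NINAC unigenes were higher in the male, with 1437 reads in male adults, against 28, 4 and 0 in early, middle and late females. Several of these may be fragments of the same transcript and are not counted as independent. The most abundant (Unigene129773_FOB) had 631 reads in male adults, against 10, 1 and 0, and was 68.1-fold above early females (36.8 to 143). The other visual-type arrestin, again arrestin-like (Unigene72573_FOB), had 193 reads in male adults, against 13, 8 and 6 in the females, and was 16-fold above early females (9.15 to 30.6). Beta-arrestins, which act on many receptors outside the eye, had 0 of 6 unigenes past the rule, with 2 having enough reads. Together they had 120 reads in male adults, against 65, 59 and 119 reads, at ratios of 1.99 (1.46 to 2.74), 1.61 (1.17 to 2.24) and 1.02 (0.786 to 1.33).

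Of the steps that follow the receptor, Gq alpha, phospholipase C and INAD had 0 unigenes past the rule. The 2 unigenes of the Gq alpha subunit, which the receptor activates, had 81 reads in male adults, against 150, 107 and 105 in females. Their sum was 0.583 times the level of early females (0.439 to 0.769). The 2 differed: Unigene131096_FOB had 28 reads in male adults, against 104, 59 and 60 in early, middle and late females. Unigene119192_FOB had 53 reads, against 46, 48 and 45. Phospholipase C had 0 of 10 unigenes with enough reads past the rule, and its summed ratio over early females was 0.932 (0.824 to 1.05). That sum pools matches to beta, gamma and epsilon types, and its unigenes differed in direction. A beta-4 match had 70 reads in male adults, against 30, 23 and 39 in early, middle and late females (Unigene126604_FOB). A gamma-1 match had 36 reads, against 78, 57 and 127 (Unigene155610_FOB). INAD, the scaffold that in Drosophila holds the cascade together, had 137 reads in male adults, against 108, 59 and 76, at ratios from 1.37 (1.06 to 1.78) to 1.84 (1.35 to 2.54), below the rule.

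Of 8 channel unigenes matched to TRPL or TRP gamma, 2 were lower in the male by the 4-fold rule. The 8 together had 33 reads in male adults, against 372, 187 and 99 reads in early, middle and late females, at 0.0957 (0.0649 to 0.137), 0.140 (0.0936 to 0.204) and 0.338 times (0.22 to 0.505) the female level. Those 2, of the 3 with enough reads, were trpl-like unigenes with 1 read (Unigene137826_FOB) and 3 reads (Unigene122737_FOB) in male adults, against 97, 54 and 26 reads and 82, 38 and 21 reads in the females. With 5 CPM added 0 passed, with no minimum of reads 4, and without late females 5. The other with enough reads, matched to TRPL (Unigene137058_FOB), had 26 reads in male adults, against 26, 14 and 15 in females, and did not pass. TRP gamma and TRPL relatives are also used outside photoreceptors. A unigene matched to pyrexia, a heat-activated TRP channel in Drosophila (Unigene156803_FOB), had 1 read in male adults, against 44, 31 and 36 in females. Of 13 unigenes of phosphatidylinositol transfer proteins, 1 was lower too (Unigene108990_FOB, 4 reads against 178, 71 and 37), and 10 others had enough reads and did not pass. None of those matched to retinal degeneration B passed. Among them Unigene144533_FOB had 108 reads in male adults, against 62, 56 and 44 in females, and Unigene116035_FOB had 20, against 20, 17 and 7.

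**Figure D3:**
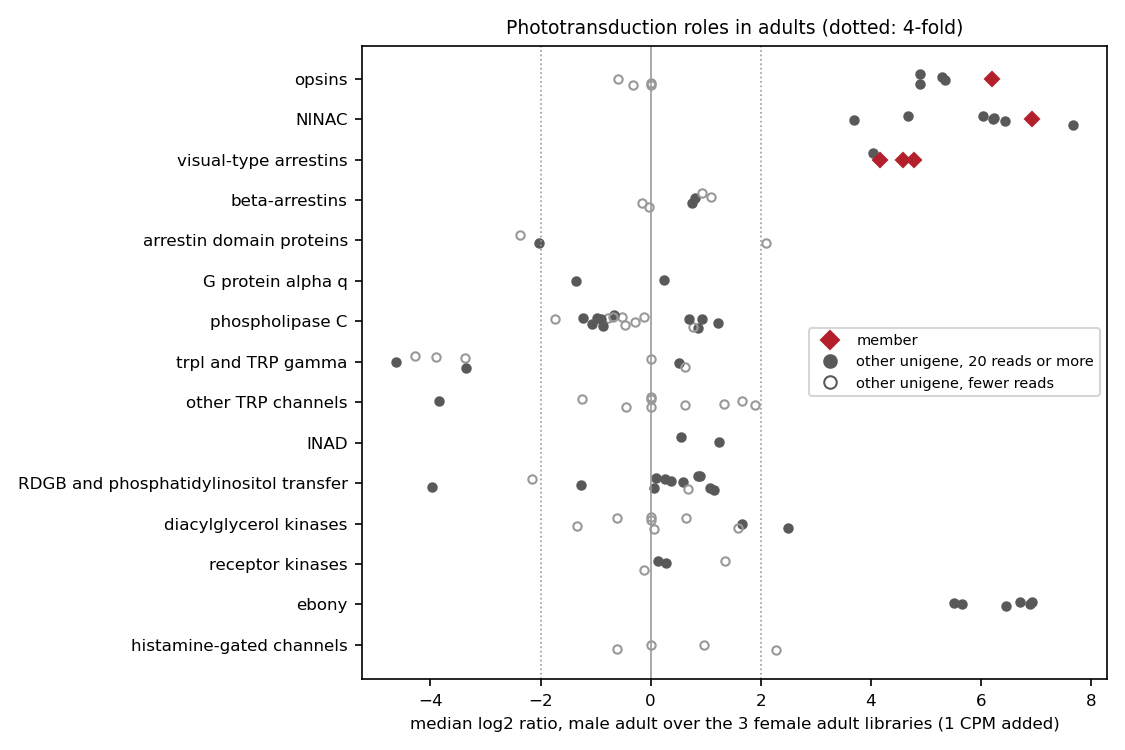
Median log2 ratio of the male adult over the 3 female adult libraries, 1 CPM added, for each unigene by its role in the cascade. Members are red diamonds, other unigenes with 20 reads or more filled circles and those with fewer open circles; dotted lines mark 4-fold, which each of the 3 ratios had to pass for a call. NINAC, visual-type arrestins, ebony and the opsins with 20 reads or more lie to the right. The opsins with fewer reads lie at 0 or to its left, and most TRPL and TRP gamma unigenes with reads lie to the left.

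Counted as a list by searched names, the cascade held 114 unigenes besides the members, of which 54 had enough reads in adults. Of these 12 were higher and 4 lower in the male, with a median log2 ratio of 0.77, against -0.06 over all unigenes. Over all unigenes 9.34% were higher and 7.8% lower, and the counts of this list and of those below are to be read against these shares. The 12 were the opsin, NINAC and visual arrestin unigenes given above, among which fragments of the same transcript may be counted more than once. The lower calls numbered 1 with 5 CPM added in place of 1, 7 with no minimum of reads and 8 without late females.

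Lists for other functions of the eye differed from each other. The photoreceptor synapse list had 6 of 6 unigenes with enough reads higher in the male, all matched to ebony or its enzyme name, beta-alanyl conjugating enzyme. In Drosophila this enzyme inactivates histamine, the photoreceptor transmitter, and also acts in cuticle pigmentation. The 6 together had 1445 reads in male adults, against 183, 5 and 1 in early, middle and late females, and the most abundant had 515 reads against 69, 2 and 0 (Unigene150013_FOB). Several of the 6 may be fragments of the same transcript and are not counted as independent. The same list had 4 unigenes of histamine-gated channels, and these had too few reads.

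Eye development and rhabdomere proteins had 7 unigenes with enough reads of 35, of which 1 was higher and 0 lower. It was chaoptin, a surface protein that binds rhabdomere microvilli to each other in Drosophila, with 44 reads in male adults, against 10, 3 and 4 in females (Unigene156636_FOB). It did not pass with 5 CPM added. That list's searched words also caught unrelated proteins such as glass bottom boat, a growth factor. The chromophore and retinoid list had 0 of 12 past the rule in either direction, with a median log2 ratio of 0.39. Its most abundant unigene in male adults, matched to a cellular retinaldehyde binding protein (Unigene76528_FOB), had 278 reads, against 36, 115 and 65 in females.

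Screening pigment proteins had 0 higher and 3 lower of 15, with a median log2 ratio of -1.09. Lower were kynurenine 3-monooxygenase, an enzyme of ommochrome pigment synthesis, with 11 reads in male adults, against 59, 147 and 79 in females (Unigene149358_FOB), and a pair of unigenes of scarlet, a pigment precursor transporter. The scarlet unigenes had 3 and 4 reads in male adults, against 24, 49 and 32 reads (Unigene152238_FOB) and 38, 74 and 38 reads (Unigene29021_FOB) in females. The lower calls numbered 2 under TMM scaling, 0 with 5 CPM added and 7 without early females. Cryptochromes, photolyases and clock proteins, searched as other light sensing, had 0 of 5 past the rule and a median of -0.63.

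Markers of other tissues were set beside the members. The 61 neuron marker unigenes summed to 992 CPM in male adults, against 885, 874 and 745 CPM in early, middle and late females, and 4 of them had no read in male adults, against 4, 22 and 26 in the females. Of the 23 with enough reads, 3 were higher and 0 lower in the male. These were a synaptotagmin-10 match with 217 reads, against 38, 5 and 2 (Unigene156923_FOB), complexin with 110 reads, against 20, 2 and 3 (Unigene109463_FOB), and a nicotinic acetylcholine receptor alpha subunit with 101 reads, against 20, 1 and 3 (Unigene36139_FOB). All 3 are proteins of synapses, as are most of the names searched for this list. The 117 muscle marker unigenes summed to 10131 CPM in male adults, against 4880, 2547 and 1811 CPM in females, with 14 higher and 0 lower of 100. Of these 6 had no read in male adults, against 7, 8 and 10 in the females. The shares called higher are to be read against the 9.34% of all unigenes. The members' summed ratio over early females was 36.6, against 1.12 for neuron markers (1.05 to 1.20) and 2.08 for muscle markers (2.03 to 2.13). Per unigene, the median log2 ratio over the 3 female libraries was 1.40 for neuron and 1.87 for muscle markers, against -0.06 over all unigenes. Of 24 neuron markers with enough reads, 12 were higher and 2 lower against middle females, and 10 and 1 against late females. Of 100 muscle markers, 43 were higher and 1 lower against middle females, and 63 and 0 against late females. The part of these tissues in the members' levels was not tested.

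**Figure D4:**
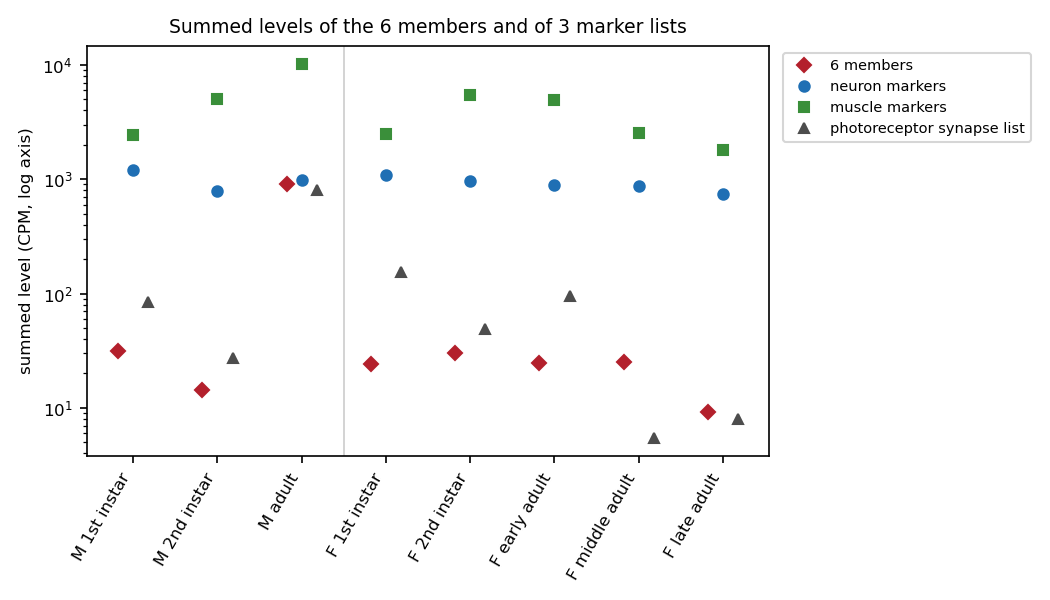
Summed level in CPM on a log axis of the 6 unigenes, the 61 neuron markers, the 117 muscle markers and the photoreceptor synapse list in each library, male libraries left of female ones. The 6 unigenes reach 902 CPM in the male adult and stay between 9.12 and 31.7 CPM elsewhere, while neuron markers run from 745 CPM in late adult females upwards in every library.

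Among themselves the members had similar profiles. Likeness was the overlap of the shares of summed CPM that each library held, as a percentage, over the 8 libraries. It ran from 81.2% between NINAC and the shorter arrestin-like fragment to 96.5% between the Arr2-like arrestin and the longer arrestin-like fragment. The value describes these 8 libraries, and the shared male adult library carries most of it.

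The named unigenes most like the opsin, among 12993 compared, were an arginine kinase (Unigene90964_FOB, 96.6%), the long wave opsin already described (Unigene128944_FOB, 95.8%), a G protein beta subunit (Unigene156068_FOB, 95.7%) and a pair of NINAC unigenes (Unigene146515_FOB, 95.4%, and Unigene48936_FOB, 94.4%). Arginine kinase regenerates ATP in insect muscle and nerve. It had 142 reads in male adults, against 7, 1 and 0 in early, middle and late females. The G protein beta unigene is annotated with rhodopsin mediated phototransduction and had 391 reads in male adults, against 17, 1 and 3 in the females. It was 24.8-fold above early females (15.3 to 43.1) and was not caught by the searched names of the cascade. As with each unigene chosen for likeness to a member, its high male adult level follows from the choice. It therefore cannot be set against the Gq alpha unigenes, which were chosen by name.

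The isomerase was most like a hyaluronidase-like protein (Unigene139919_FOB, 98.3%), the most abundant NINAC unigene (Unigene129773_FOB, 97.5%) and another NINAC unigene (Unigene65_FOB, 97.4%). The NINAC member was most like a pair of sugar-transferase matches (Unigene153373_FOB, 98.3%, and Unigene144424_FOB, 98.0%) and a myosin light chain (Unigene62219_FOB, 97.7%). For the Arr2-like arrestin they were a hemolymph proteinase (Unigene156925_FOB, 97.7%), the longer arrestin-like fragment and a GTP-binding protein (Unigene109774_FOB, 96.2%). For the longer fragment they were cubilin (Unigene36836_FOB, 97.2%), an acyl-CoA dehydrogenase (Unigene117484_FOB, 97.2%) and the same GTP-binding protein (97.1%). For the shorter fragment they were a pair of phosphoenolpyruvate carboxykinase unigenes (Unigene98039_FOB, 96.6%, and Unigene119162_FOB, 95.5%) and the muscle protein Unc-89 (Unigene152459_FOB, 95.7%).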

How the data were processed

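RNA-seq of 8 libraries, 1 per group by title, was analysed. Per the file headers, the authors deposited the count of uniquely assigned reads per unigene, RPKM, the percent of its length covered, annotation and the best-matching protein. Unigenes missing from a table were taken as 0. For the assembler, aligner and strand setting, "not given in the sources used here" applies, as for whether reads of near-identical genes were split. Depth limits a count of 0 to 1.30 to 2.05 CPM. Counts were divided by the header total. Ratios have exact conditional (Clopper-Pearson) intervals; against 0 reads a floor of 3 reads per library gives a bound. The test across stages used edgeR 4.0.16 in R 4.3.3 (filterByExpr, TMM, Benjamini-Hochberg), checked on simulated data, with DESeq2 1.42.0 as an alternative; the rest used Python 3.11.15 and SciPy 1.17.1. Alternatives were TMM scaling, 5 CPM added, no minimum of reads and leaving out libraries. Members, gene lists (patterns in match descriptions) and tests were chosen with earlier results of these data known. Named were the members, unigenes of a list past the 4-fold rule (at most 4 per direction) and its most abundant, the nearest profiles, and, chosen after their values were seen, further unigenes of a role. Any such test measures the spread between stages, not between insects.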

Additional observations from a re-analysis of the deposited data

Results flagged for a closer look

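For 5 members the male to female ratio at 1 or both larval stages pointed the opposite way to the ratio in adults, in which the male library was higher than each of the 3 female libraries. At the second instar, male over female, the ratio was 0.220 for the opsin (2 reads against 8, 0.0227 to 1.10), 0.366 for the Arr2-like arrestin (5 against 12), 0.275 for the shorter arrestin-like fragment (5 against 16), 0.391 for the isomerase (4 against 9) and 0.527 for NINAC (3 against 5). At the first instar it was 0.876 for the Arr2-like arrestin (11 reads against 12) and 0.782 for the shorter arrestin-like fragment (9 against 11). For the opsin, isomerase and NINAC the first-instar ratio ran the adult way, at 1.77 (13 reads against 7), 1.83 (23 against 12) and 3.34 (7 against 2), with intervals that include 1. Among the 7 ratios opposite to the adults, the interval for counting error lay below 1 for the shorter arrestin-like fragment at the second instar alone (0.0787 to 0.785). In the added fit, the adult minus the larval log2 difference ran from 5.20 to 8.79 for the members. The p-values given with that fit rest on the assumption that the single male adult library varies like the others.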

How the results depend on the processing

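The 6 adult calls held with 5 CPM added. They also stood under TMM scaling, with no minimum of reads and without each female adult library, but these settings could not remove a higher call of a member. Counts over all unigenes moved more. With 5 CPM added, adults had 1585 higher and 647 lower, first-instar larvae 72 and 208, and second-instar larvae 410 and 479. With no minimum of reads, adults had 3441 lower, first-instar larvae 666 higher and 2254 lower, second-instar larvae 1694 and 2423, and 2 members were lower in middle than in early females. Leaving out 1 female adult library gave 2685 to 4128 higher and 2433 to 3589 lower in adults, the most without early females; the cause was not tested. Higher neuron markers (3) became 5 under TMM scaling, 2 with 5 CPM added and 10 without early females, and higher muscle markers (14) became 21, 11 and 43.

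In the test across stages, no filter gave 509 higher and 137 lower, with 2 members among them, and DESeq2 gave 43 and 47, and the cause was not tested. Leaving out 1 library gave log2 differences of -0.80 to 3.71 for the Arr2-like arrestin, -1.10 to 3.45 for the shorter arrestin-like fragment and -0.15 to 5.58 for the isomerase, each lowest without male adults. In the added fit, library totals in place of TMM gave 1008 higher and 631 lower, with 4 members, and leaving out 1 library gave 0 to 6 members, 0 to 5268 higher and 0 to 2581 lower. Without early females it called 5268 and 2581, without late females 1926 and 659. No paired analysis was possible because each group held replicate number 1 only, so no replicate block could be fitted. Depth limits the larval and female values, most of which rest on under 20 reads.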

Other observations

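A further unigene, chosen after its values were seen, was matched to CRALBP, a family of proteins that carry retinal in vertebrate eyes (Unigene152991_FOB). It had 185, 72 and 3087 reads in male first-instar, second-instar and adult libraries, against 65, 69, 72, 29 and 326 reads in the female first-instar, second-instar, early, middle and late adult libraries, and ranked 2 by reads in the male adult library. It was 46.3-fold (36.6 to 59.3), 84.5-fold (58.7 to 126) and 9.59-fold (8.55 to 10.8) higher in male adults than in early, middle and late females. Unlike the members, its highest female level was in late adults. The searched names of the retinoid list did not catch it.

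Ebony unigenes were lower in male than in female larvae at both instars. They had 176 and 52 reads in male first-instar and second-instar larvae, against 321 and 83 reads in females of the same stages, at ratios of 0.524 (0.433 to 0.631) and 0.551 (0.382 to 0.788). Adult females had 183, 5 and 1 reads at the early, middle and late stage, and the middle stage was at 0.0372 times the early one (0.0119 to 0.0883).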
